A study of Mus musculus with 20 samples.

Results

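The genes examined here are 40 liver-made plasma factors of complement, coagulation and fibrinolysis, chosen by gene symbol from a list of such factors. They are 40 of the 34933 named genes in the deposited tables, and all 40 passed the low-count filter that left 12789 genes for testing. RNA was sequenced from livers of WT mice labelled DIO (diet-induced obesity), 5 libraries in each of 4 groups: vehicle, rosuvastatin (a statin, which inhibits HMG-CoA reductase, the rate-limiting enzyme of cholesterol synthesis), GGOH (geranylgeraniol, an isoprenoid alcohol of the same pathway) and rosuvastatin with GGOH, called the combination below. Every group carried the same genotype and the same obesity label, and no lean or undosed group was analysed here. The labels give no dose, duration, sex, age or batch. Nothing in them states that the 5 numbered samples of a group are separate animals beyond their numbers, so p-values measure the spread between these samples.

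Complement and coagulation are cascades of plasma proteases that circulate as inactive precursors, and hepatocytes make most of them. Complement starts by the classical, lectin or alternative route, meets at C3 and ends in the pore formed by C5 to C9. Coagulation starts at tissue factor or by contact, meets at factor X and thrombin, and ends in a fibrin clot that plasmin dissolves. Several clotting factors are completed by vitamin K dependent carboxylation after translation, a step that transcript levels do not show. Geranylgeranyl is both the lipid that anchors many small GTPases and the side chain of one form of vitamin K2, and fibrinogen and several complement genes belong to the hepatic acute phase response.

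The library totals ran from 8548120 to 18373913 estimated counts, and mitochondrial genes took up to 17.1% of counts in 18 libraries but 27.9% in combination 2 and 29.2% in combination 3. TMM scaling factors ran from 0.76 in vehicle 5 to 1.25 in vehicle 1. Vehicle 1, combination 2 and combination 3, the 3 libraries set aside, are left out together in a check below. Vehicle 5 and rosuvastatin 5, with a factor of 1.22, are kept in it. Vehicle 1 had the highest TMM-scaled level (CPM) of 11 members, and combination 2 and combination 3 the lowest of 10 and 8. Leaving them out by itself lowers the vehicle mean or raises the combination mean of those members. The check thus tends to shrink differences in which the combination is lower. All 10 hepatocyte markers listed were detected, with summed levels between 28441 and 77817 TPM. The 4 cholangiocyte markers were each under 1 TPM on average over the 20 libraries.

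Upstream sequence is shown for the fibrinogen chains and for 2 chains of complement component C8, because these are neighbouring genes, each set encoding 1 protein complex, whose levels are compared library by library below. Fga, Fgb and Fgg lie side by side within chr3:83007724-83049863, and C8b and C8a lie 11131 bases apart within chr4:104766317-104876398, positions from GENCODE M21 on GRCm38. The stretches below are the 250 bases before the RefSeq transcript start (GRCm38.p6), 5′ to 3′ on the gene's strand, except that the last 77 bases of the Fga window, which GENCODE places in its first exon, are not printed. Capitals mark CTGGGA, the core of the IL-6 type II response element, and TTGCNNAA, a motif of the C/EBP type, on either strand.
Fga (chr3:83025903-83026075, plus strand): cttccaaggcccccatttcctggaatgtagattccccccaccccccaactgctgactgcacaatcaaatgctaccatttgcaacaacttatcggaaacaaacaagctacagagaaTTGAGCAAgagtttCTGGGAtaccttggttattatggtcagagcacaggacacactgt
Fgb (chr3:83049864-83050113, minus strand): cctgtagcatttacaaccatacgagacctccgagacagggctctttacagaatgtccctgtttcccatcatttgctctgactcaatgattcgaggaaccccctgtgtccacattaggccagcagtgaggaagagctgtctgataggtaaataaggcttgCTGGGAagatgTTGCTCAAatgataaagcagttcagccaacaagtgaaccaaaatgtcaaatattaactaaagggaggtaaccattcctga
Fgg (chr3:83007474-83007723, plus strand): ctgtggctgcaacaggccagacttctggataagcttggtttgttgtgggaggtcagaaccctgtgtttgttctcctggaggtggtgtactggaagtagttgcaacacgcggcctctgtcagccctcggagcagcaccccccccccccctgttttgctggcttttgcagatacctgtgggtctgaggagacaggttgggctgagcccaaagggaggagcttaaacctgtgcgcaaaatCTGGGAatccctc
C8a (chr4:104876399-104876648, minus strand): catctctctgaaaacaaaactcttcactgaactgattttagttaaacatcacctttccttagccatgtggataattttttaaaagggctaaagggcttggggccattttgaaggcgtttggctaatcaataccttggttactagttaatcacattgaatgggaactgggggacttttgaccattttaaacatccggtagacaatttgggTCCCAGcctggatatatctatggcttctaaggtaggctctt
C8b (chr4:104766067-104766316, plus strand): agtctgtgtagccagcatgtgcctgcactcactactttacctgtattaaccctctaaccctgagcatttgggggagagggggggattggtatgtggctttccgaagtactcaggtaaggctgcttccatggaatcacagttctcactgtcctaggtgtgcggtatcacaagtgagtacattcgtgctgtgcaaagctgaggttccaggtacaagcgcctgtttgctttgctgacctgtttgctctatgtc
CTGGGA started 121 bases before the transcript start in Fga, 91 in Fgb, 13 in Fgg and 41 in C8a. TTGCNNAA was found in the Fga and Fgb windows, 135 and 80 bases before the start, and TATAAA in none of the 5. In the windows of C8b and of C8g, the gene of the third C8 chain, none of these motifs was found. Among all 32851 promoter windows of the same length, CTGGGA was in 27.0% and TTGCNNAA in 9.56%. Among the 32 members with a window, 15 held CTGGGA and 8 held TTGCNNAA. CTGGGA and TTGCNNAA share no bases in these windows, and a match of letters is a description, not a binding site.

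Levels between genes are compared in TPM, which is scaled for transcript length. The most abundant member was Fgg, the fibrinogen gamma chain, at 1522 ± 739 (SD, n = 20) TPM. It was followed by Serpinc1 (antithrombin, the main inhibitor of thrombin) at 1351 ± 333 (SD, n = 20) TPM, Fga (fibrinogen alpha chain) at 882, Kng1 (kininogen, the source of bradykinin) at 866 and Fgb (fibrinogen beta chain) at 636. The TPM ranges of these 5 genes overlapped each other over the 20 libraries. The lowest members were C6, a pore component, at 9.47 ± 6.74 (SD, n = 20) TPM, F11 (factor XI) at 11.5 and Pros1 (protein S, the cofactor of activated protein C) at 11.6. Within complement, C3, the central substrate, was at 546 TPM and C2, a protease that helps cut it, at 18.5. Within coagulation, prothrombin (F2) was at 532 and factor VII (F7), which binds tissue factor, at 19.1.

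**Figure D1:**
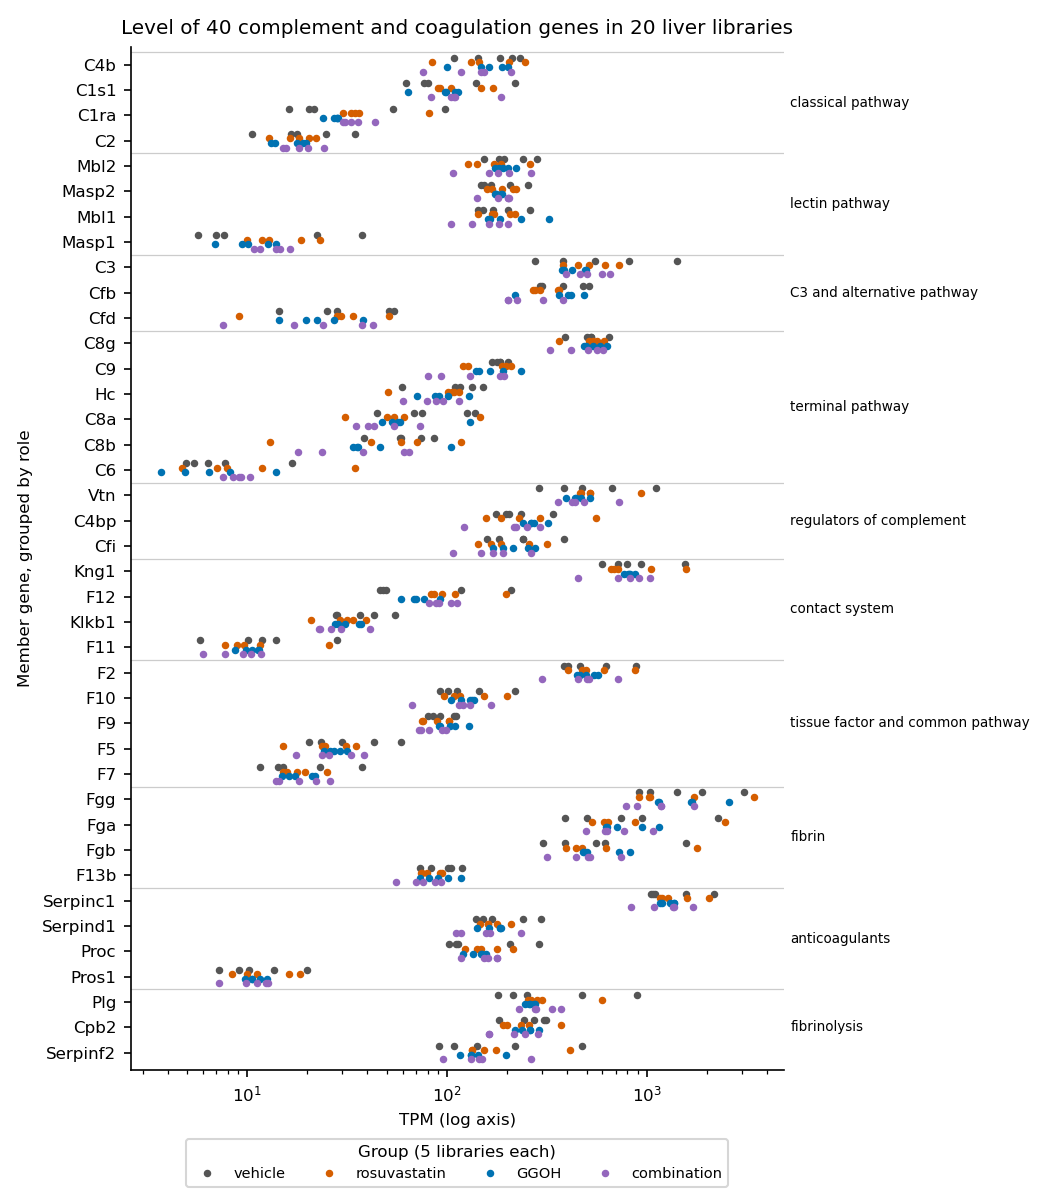
Level of each of the 40 members in every library (TPM on a log axis), grouped by role and coloured by treatment, 5 libraries a group. The 3 fibrinogen chains and Serpinc1 stand at the high end and C6, F11 and Pros1 at the low end, and the colours of the 4 groups lie among each other in most rows.

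Members varied widely between libraries of the same group. The summed members took 2.25 ± 0.84% (SD, n = 5) of counts in the vehicle group, 2.17 ± 0.77% in the rosuvastatin group, 1.99 ± 0.28% in the GGOH group and 1.85 ± 0.30% in the combination group, and the 4 ranges overlapped. From here on, levels of 1 gene are CPM after TMM scaling. The smallest spread was that of Masp2, a lectin pathway protease, whose highest library was 1.498 times its lowest, and of Pros1 at 1.62 times. C8b at 12.2 times and Cfd (factor D, the protease that starts the alternative pathway) at 11.2 times had the largest. The median SD within groups was 0.34 on the log2 scale for the members, 0.39 for all tested genes and 0.31 for the 3911 genes at least as high as the lowest member.

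A few libraries held most of the extremes. Vehicle 1 had the highest CPM of 11 members, vehicle 2 of 9 and rosuvastatin 3 of 8, while rosuvastatin 5 had the lowest of 11, combination 2 of 10 and combination 3 of 8. In vehicle 2, 35 of 40 members stood above their mean over the 20 libraries, against 48.5% of all genes. In rosuvastatin 5, 4 of 40 did, against 52.4% of all genes. On the TPM scale the picture shifted: vehicle 1 had the highest value of 24 members, and the lowest value fell in vehicle 5 for 14 members and in combination 2 for 13.

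No member passed the test in any of the 8 comparisons made with the edgeR quasi-likelihood test, adjusted over all genes, and DESeq2 and limma called none either. The count of all genes past an adjusted p of 0.05 was also 0 (0.0%) in 7 of them, and in the effect of GGOH averaged over rosuvastatin it was 1 gene (0.00782%), which is no member. The 3 comparisons with vehicle share the vehicle libraries and are given side by side. With rosuvastatin, 36 of 40 members had a negative log2 fold change, with a median of -0.23 against -0.02 for all genes. With GGOH it was 37 of 40, with a median of -0.16 against -0.02, and with the combination 38 of 40, with -0.33 against 0.01. At an unadjusted p under 0.05 these held 2, 4 and 8 members, all lower, where 3.69%, 2.86% and 5.5% of all genes passed, and 1.92%, 1.6% and 2.81% passed in the lower direction.

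The sizes of these differences and the counts of members lower depended on scale and on single libraries. Counts of lower members by pathway, given below, are on the TMM scale. The members' median stayed negative in each comparison with vehicle under every alternative. With 1 library left out at a time, the median for rosuvastatin ran from -0.33 without rosuvastatin 3 to -0.095 without rosuvastatin 5. The median for GGOH ran from -0.27 without GGOH 1 to -0.12 without GGOH 2, and that for the combination from -0.39 without combination 1 to -0.22 without vehicle 1. Without vehicle 1 the counts were 30, 33 and 34 of 40. With limma on log2(TPM + 1), 23 of 40 members were lower with rosuvastatin, with a median of -0.04, while the median of all genes moved to 0.11, and 34 were lower with GGOH and 33 with the combination. Total-count scaling gave 29 of 40 for rosuvastatin, with a median of -0.06 against 0.13 for all genes. Without vehicle 1, combination 2 and combination 3 together the counts were 31, 33 and 28 of 40, and the median for the combination was -0.18. Of the 10 hepatocyte markers, 9, 7 and 10 were also lower with rosuvastatin, GGOH and the combination, with medians of -0.24, -0.16 and -0.24, and none passed the test. Their summed level was 31804 to 77817 TPM in the vehicle group, 39299 to 61139.8 with rosuvastatin, 40175 to 48067 with GGOH and 28441 to 62286 with the combination. Their part in the members' difference was not tested, and in bulk tissue fewer hepatocytes and less RNA per hepatocyte cannot be told apart.

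**Figure D2:**
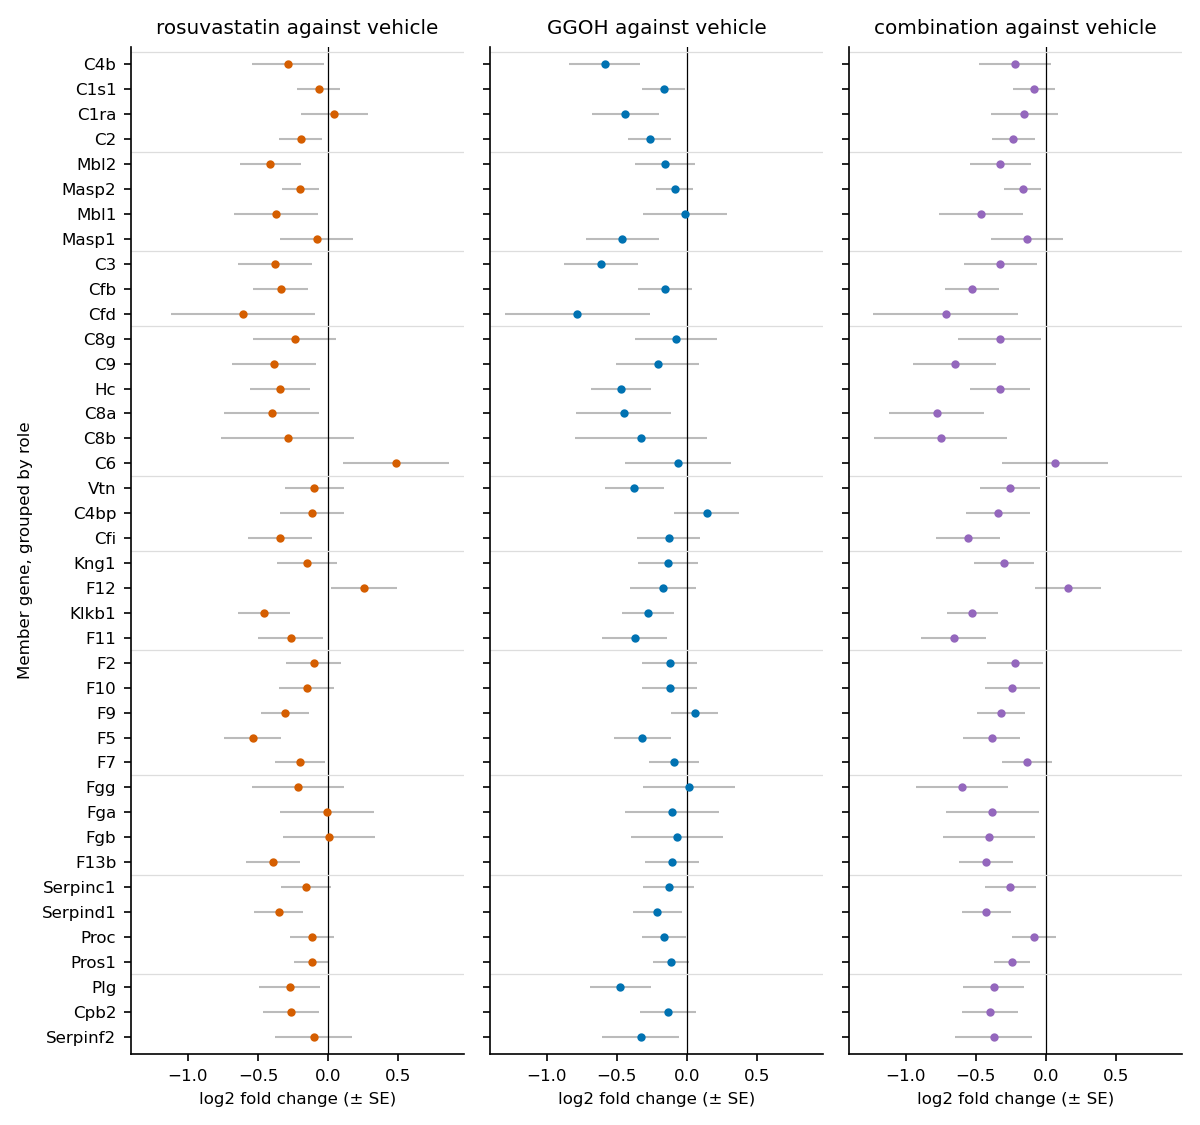
Fitted log2 fold change (point) and its SE (bar) of each of the 40 members against vehicle for rosuvastatin, GGOH and the combination, grouped by role. Most points lie left of 0 in each panel (36, 37 and 38 of 40), and no member passed the adjusted test in any panel.

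In the classical pathway, C1ra and C1s1 encode the proteases of the C1 complex, and C4b and C2 supply the convertase that cuts C3. C4b, the substrate of C1s, stood at 725, 473, 444, 292 and 252 CPM in the vehicle libraries 1 to 5, 267, 373, 442, 364 and 349 in the rosuvastatin libraries, 338, 311, 261, 244 and 302 in the GGOH libraries and 294, 495, 524, 250.3 and 314 in the combination libraries. Vehicle 1 was the highest of all 20, and the GGOH libraries lay between 244 and 338 CPM, overlapping the lower end of the vehicle range. The fold change with GGOH was -0.59 ± 0.26 (SE) on the log2 scale, and it did not pass (edgeR adjusted p = 1.00). It was -0.31 without vehicle 1 and -0.12 with log2(TPM + 1), and the group means were 176 ± 50.1 TPM (SD, n = 5) in vehicle and 160.4 ± 40.2 TPM with GGOH. C1ra stood at 191, 80.0, 130.0, 82.6 and 69.6 CPM in the vehicle libraries 1 to 5, 113, 113, 178, 90.7 and 76.6 in the rosuvastatin libraries, 80.2, 76.5, 81.5, 85.3 and 84.8 in the GGOH libraries and 105, 93.1, 115, 97.3 and 88.2 in the combination libraries. All 5 GGOH libraries lay below all 5 combination libraries, a separation that 2.26% of all genes showed in this comparison in either direction, and the combination was higher by 0.29 ± 0.24 (SE) on the log2 scale (edgeR adjusted p = 0.537). In TPM the 2 groups did not overlap either, with GGOH up to 28.6 and the combination from 30.1 TPM. C2 stood at 43.8, 39.1, 38.9, 39.0 and 28.9 CPM in the vehicle libraries 1 to 5, 29.1, 32.7, 37.3, 39.3 and 27.4 in the rosuvastatin libraries, 40.7, 33.0, 28.6, 31.8 and 24.1 in the GGOH libraries and 30.6, 32.2, 30.5, 29.0 and 39.4 in the combination libraries. Vehicle 5 lay apart below the other 4 vehicle libraries. Values so marked, here and below, were 4 in 168 groups of 5 libraries, where chance gives about 8.4. Across the 3 comparisons with vehicle, 3, 4 and 4 of the 4 classical members were lower, with medians of -0.13, -0.35 and -0.19. Counts for C1ra, C1s1 and C4b may be shared with their near-identical copies C1rb, C1s2 and C4a, because kallisto divides such reads by estimation. C1rb and C1s2 were at or near 0 TPM, and C4a was not in the table.

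The lectin pathway starts from mannose-binding lectins (Mbl1, Mbl2), which carry the proteases Masp1 and Masp2. Mbl2 stood at 185, 257, 197, 199 and 264 CPM in the vehicle libraries 1 to 5, 271, 156, 126, 129 and 146 in the rosuvastatin libraries, 214, 167, 207, 224 and 175 in the GGOH libraries and 205, 112, 142, 204 and 216 in the combination libraries. Rosuvastatin 1 stood apart above its group, and the groups overlapped. Mbl1 and Mbl2 varied together over the 20 libraries (Pearson r = 0.694, adjusted permutation p = 0.00167, Spearman rho = 0.764, adjusted permutation p = 0.000324), but with log2(TPM + 1) r was 0.362 (adjusted permutation p = 0.151). Without vehicle 2 and GGOH 1, the libraries farthest from the median of Mbl1, r was 0.665. On the TMM scale all 4 lectin members were lower in each comparison with vehicle, with medians of -0.28, -0.12 and -0.25, and none passed. The mean of log2 TPM was instead higher than in vehicle for Masp1 and Masp2 with rosuvastatin and with the combination, and for Mbl1 with GGOH.

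C3 is the protein at which all 3 complement routes meet, and in the alternative pathway factor B (Cfb) joins its fragment C3b and is cut by factor D (Cfd) to give the convertase. C3 stood at 3785, 2292, 2039, 1522 and 1201 CPM in the vehicle libraries 1 to 5, 1255, 1862, 2350.2, 1666 and 1186 in the rosuvastatin libraries, 1673, 1400.4, 1474, 1297 and 1241 in the GGOH libraries and 1649, 1863, 2299, 1259 and 1597 in the combination libraries. The vehicle libraries spanned 1201 to 3785 CPM and contained every GGOH value, and the GGOH fold change was -0.61 ± 0.26 (SE) (edgeR adjusted p = 1.00), and -0.296 without vehicle 1. Its group mean was 2168 ± 1000.1 CPM (SD, n = 5) in vehicle and 1417 ± 169 with GGOH. Cfb stood at 647, 798, 495, 484 and 572 CPM in the vehicle libraries 1 to 5, 565, 460.3, 595, 366 and 383 in the rosuvastatin libraries, 656, 490.0, 496, 651 and 392 in the GGOH libraries and 449.9, 327, 381, 454 and 469 in the combination libraries. All 5 combination libraries, up to 469 CPM, lay below all 5 vehicle libraries, from 484 CPM, a separation seen in 0.758% of all genes in this comparison in either direction. In TPM these 2 groups overlapped, with the combination up to 382 and vehicle from 293 TPM. The log2 fold change of the combination was -0.53 ± 0.19 (SE) against vehicle (edgeR adjusted p = 0.817) and -0.37 ± 0.19 (SE) against GGOH (edgeR adjusted p = 0.375). Without the 3 libraries set aside above these were -0.35 and -0.23.

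Cfd, a gene known for expression in fat cells, stood at 7.39, 57.5, 16.7, 29.4 and 59.1 CPM in the vehicle libraries 1 to 5, 27.6, 25.8, 29.8, 22.4 and 5.70 in the rosuvastatin libraries, 20.01, 14.3, 30.7, 11.8 and 21.9 in the GGOH libraries and 34.0, 14.1, 5.26, 34.1 and 15.5 in the combination libraries. The vehicle group alone spanned 7.39 to 59.1 CPM, and all 4 groups overlapped. Rosuvastatin 5 lay apart below its group, whose other 4 values ran from 22.4 to 29.8 CPM. Of the 6 adipocyte markers, Adipoq, Lep, Plin1 and Retn averaged under 1 TPM over the 20 libraries, with 1 of them at 0 in all libraries. The 6 markers summed to 32.1 to 63.6 TPM in the vehicle group, 33.5 to 136 with rosuvastatin, 47.9 to 71.6 with GGOH and 33.9 to 111 with the combination. Their part in the Cfd values was not tested.

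The terminal pathway members build the membrane pore. Hc, which encodes C5, stood at 476, 332, 299, 290.0 and 200.2 CPM in the vehicle libraries 1 to 5, 198, 279.8, 339, 253 and 187 in the rosuvastatin libraries, 309, 218, 216, 185 and 226 in the GGOH libraries and 221, 290.3, 312, 227 and 224 in the combination libraries. The groups overlapped, and the GGOH fold change was -0.47 ± 0.21 (SE) (edgeR adjusted p = 1.00), -0.26 without vehicle 1 and -0.21 with log2(TPM + 1). C6 stood at 28.7, 20.5, 17.97, 23.6 and 20.5 CPM in the vehicle libraries 1 to 5, 18.6, 36.7, 67.4, 22.9 and 10.1 in the rosuvastatin libraries, 25.9, 16.8, 13.8, 10.6 and 39.6 in the GGOH libraries and 27.6, 22.3, 17.2, 25.9 and 23.4 in the combination libraries. Rosuvastatin 3 was the highest and rosuvastatin 5 the lowest of all 20, so the whole range in CPM fell inside 1 treatment group. In TPM the lowest library was GGOH 4, at 3.69 TPM, and rosuvastatin 5 stood at 4.73 TPM.

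The 3 chains of C8, shown by library after their values were seen, did not share 1 order over the libraries. C8a stood at 322, 438, 195, 262 and 181 CPM in the vehicle libraries 1 to 5, 186, 226, 384, 175 and 84.4 in the rosuvastatin libraries, 367, 163, 174, 128 and 189.6 in the GGOH libraries and 174, 140.4, 105, 189 and 206 in the combination libraries. C8b stood at 124, 216, 105, 166 and 122 CPM in the vehicle libraries 1 to 5, 163, 143, 189, 83.4 and 21.0 in the rosuvastatin libraries, 257, 67.5, 78.6, 102 and 79.7 in the GGOH libraries and 152, 38.8, 44.8, 82.9 and 116 in the combination libraries. Both were lowest in rosuvastatin 5. These neighbouring genes, whose upstream stretches are printed above, varied together (Pearson r = 0.848, adjusted permutation p = 2.2e-05, Spearman rho = 0.815, adjusted permutation p = 0.000157), and r was 0.775 without vehicle 2 and rosuvastatin 5. C8g, on another chromosome and with a transcript of 1150 bases, stood at 199, 566, 362, 567 and 765 CPM in the vehicle libraries 1 to 5, 463, 525, 234, 518 and 343 in the rosuvastatin libraries, 598, 376, 458, 489 and 411 in the GGOH libraries and 531, 359, 234, 407 and 426 in the combination libraries. C8g was lowest in vehicle 1, where C8a was above its vehicle mean, and highest in vehicle 5. In TPM it was lowest in combination 3, at 327 TPM, and vehicle 1 stood at 392 TPM. The log2 fold change of the combination against vehicle was -0.78 ± 0.34 (SE) for C8a, -0.75 ± 0.47 (SE) for C8b and -0.33 ± 0.29 (SE) for C8g (edgeR adjusted p = 0.817, 0.817 and 0.818). For C8a and C8b it was -0.49 and -0.36 without the 3 libraries set aside above. For C8g it was -0.12 with log2(TPM + 1) or total-count scaling, -0.505 without vehicle 1, -0.098 without vehicle 5 and -0.17 without combination 3. Over the 6 terminal members, 5, 6 and 5 were lower in the comparisons with vehicle, with medians of -0.32, -0.27 and -0.49.

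Of the circulating regulators, C4bp binds the C4b protein and speeds the decay of the convertase that holds it. Cfi is the protease that cuts C3b and C4b, and vitronectin (Vtn) blocks pore insertion. C4bp stood at 488, 870.5, 393, 722 and 662 CPM in the vehicle libraries 1 to 5, 654, 432, 837, 509 and 462 in the rosuvastatin libraries, 867, 623, 641, 722 and 606 in the GGOH libraries and 598, 347, 399.6, 539 and 593 in the combination libraries. All 5 combination libraries, up to 598 CPM, lay below all 5 GGOH libraries, from 606 CPM, in a comparison where 2.26% of genes separated. In TPM these 2 groups overlapped, with the combination up to 294 and GGOH from 239.8 TPM. The difference was -0.48 ± 0.23 (SE) (edgeR adjusted p = 0.356), -0.26 without the 3 libraries set aside above and -0.24 with the offset for length and GC content described below. In that comparison 14.0% of all genes reached an unadjusted p under 0.05, 5.04% in the lower direction, against 2 of 40 members, both lower. Cfi had a log2 fold change for the combination against vehicle of -0.55 ± 0.23 (SE) (edgeR adjusted p = 0.817), and of -0.28 without those 3 libraries.

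The contact system comprises factor XII (F12), prekallikrein (Klkb1), factor XI (F11) and kininogen (Kng1). Klkb1 stood at 194, 260.3, 189, 195 and 216 CPM in the vehicle libraries 1 to 5, 117, 172, 134, 213 and 132 in the rosuvastatin libraries, 221, 139, 167, 195 and 148 in the GGOH libraries and 140.2, 147, 109, 157 and 181 in the combination libraries. All 5 combination libraries, up to 181 CPM, lay below all 5 vehicle libraries, from 189 CPM, as 0.758% of all genes separated in either direction. The log2 fold change was -0.52 ± 0.18 (SE) (unadjusted p = 0.00955, edgeR adjusted p = 0.817). In TPM these 2 groups overlapped, with the combination up to 41.0 and vehicle from 28.0 TPM. Rosuvastatin alone gave -0.46 ± 0.18 (SE) with overlapping groups (edgeR adjusted p = 0.973), and -0.28 with log2(TPM + 1).

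F11, the neighbour of Klkb1 on chromosome 8, stood at 37.5, 29.3, 24.7, 33.8 and 18.43 CPM in the vehicle libraries 1 to 5, 26.6, 21.9, 39.0, 18.9 and 13.3 in the rosuvastatin libraries, 24.2, 20.7, 17.9, 24.6 and 23.9 in the GGOH libraries and 19.4, 13.2, 17.3, 20.2 and 21.3 in the combination libraries. The highest library was rosuvastatin 3 and the combination libraries lay at 13.2 to 21.3 CPM, overlapping vehicle 5. The log2 fold change of F11 with the combination was -0.66 ± 0.23 (SE) against vehicle (edgeR adjusted p = 0.817) and -0.39 ± 0.23 (SE) against rosuvastatin (edgeR adjusted p = 1.00). GGOH averaged over rosuvastatin gave -0.38 ± 0.16 (SE) (edgeR adjusted p = 1.00). Without the 3 libraries set aside above these were -0.38, -0.24 and -0.24, and the difference from rosuvastatin was -0.15 without rosuvastatin 3. Kng1 stood at 1658, 1802, 1434, 1937 and 1627 CPM in the vehicle libraries 1 to 5, 1760.0, 1470.5, 2125, 1258 and 1002 in the rosuvastatin libraries, 1837, 1389, 1572, 1458 and 1455 in the GGOH libraries and 1753, 878, 1088, 1536 and 1618 in the combination libraries, and rosuvastatin 3 and combination 2 held its extremes. Reads of Kng1 may be shared with its copy Kng2, which was also expressed, at a group mean of 196 to 262 CPM. F12 went the other way from its partners with rosuvastatin, at 0.25 ± 0.24 (SE), and did not pass. Its value ran from 0.076 without rosuvastatin 3 to 0.56 without vehicle 1.

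In the tissue factor and common pathway, F5 is the cofactor with which factor Xa makes thrombin. F5 stood at 297, 302, 268, 232 and 226 CPM in the vehicle libraries 1 to 5, 121, 205, 134, 241 and 210.2 in the rosuvastatin libraries, 223, 188, 224, 242 and 187 in the GGOH libraries and 153, 262, 259, 179 and 161 in the combination libraries. Rosuvastatin 1 and 3 were the lowest of all libraries, and rosuvastatin 4 overlapped the vehicle range. The log2 fold change of F5 with rosuvastatin was -0.54 ± 0.20 (SE) (unadjusted p = 0.014, edgeR adjusted p = 0.973), the smallest p among the members in that comparison. Over the alternatives it ran from -0.66 to -0.37. In TPM these 2 groups overlapped too, with rosuvastatin from 15.1 to 35.2 and vehicle from 20.5 to 59.0 TPM.

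F9, the factor lacking in haemophilia B, stood at 193, 305, 247, 324 and 315 CPM in the vehicle libraries 1 to 5, 289, 226, 204, 207 and 189.7 in the rosuvastatin libraries, 279, 255, 352, 299 and 251 in the GGOH libraries and 252, 204, 177, 255 and 220.1 in the combination libraries. The GGOH libraries, from 251 to 352 CPM, and the combination libraries, from 177 to 255 CPM, overlapped between 251 and 255 CPM. Averaged over GGOH, rosuvastatin gave -0.34 ± 0.12 (SE) (unadjusted p = 0.00969, edgeR adjusted p = 0.327), -0.21 with log2(TPM + 1) and -0.11 with the offset for length and GC content. In that comparison 7 of 40 members had an unadjusted p under 0.05, all lower, beside 14.4% of all genes and 7.97% in the lower direction. Without vehicle 1 the adjusted p of F9 was 0.085, the smallest that any member reached under any alternative.

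F9, F2, F7, F10, Proc (protein C) and Pros1 are the 6 vitamin K dependent members. On the TMM scale all 6 were lower with rosuvastatin, with a median of -0.14, and 5 with GGOH, with -0.12. All 6 were lower with the combination, with -0.23, and none passed. The mean of log2 TPM was instead higher than in vehicle for F2, F10, Proc and Pros1 with rosuvastatin, and for Proc with the combination. Of the 4 genes of the vitamin K cycle, Ggcx, the carboxylase itself, stood at 14.8, 13.4, 15.8, 13.3 and 11.2 CPM in the vehicle libraries 1 to 5, 8.42, 10.4, 10.8, 14.2 and 11.1 in the rosuvastatin libraries, 11.1, 9.73, 11.8, 12.6 and 8.68 in the GGOH libraries and 8.38, 13.6, 11.6, 10.01 and 10.6 in the combination libraries. Its fold change was -0.35 ± 0.16 (SE) with GGOH (edgeR adjusted p = 1.00) and -0.34 ± 0.16 (SE) with the combination (edgeR adjusted p = 0.817), and the groups overlapped. Lower values were not particular to the groups given GGOH. The rosuvastatin libraries ran from 8.42 to 14.2 CPM, GGOH from 8.68 to 12.6 and the combination from 8.38 to 13.6, beside 11.2 to 15.8 in vehicle. Vkorc1l1, a vitamin K reductase, was higher with GGOH by 0.26 ± 0.13 (SE) (edgeR adjusted p = 1.00).

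Fibrinogen is a hexamer of paired alpha, beta and gamma chains made in hepatocytes. Fga stood at 3038, 2014, 1579, 1334 and 1159.7 CPM in the vehicle libraries 1 to 5, 1852, 1381, 3719.5, 1102 and 1018 in the rosuvastatin libraries, 2631, 1773, 1299, 1466 and 1298 in the GGOH libraries and 1482, 1052, 1112, 1550.0 and 1814 in the combination libraries. Fgb stood at 3969, 2835, 1941, 1922 and 1686 CPM in the vehicle libraries 1 to 5, 2501, 1881, 5066, 1543 and 1418 in the rosuvastatin libraries, 3549.8, 2541, 1890.2, 1928 and 1869 in the GGOH libraries and 2278, 1274, 1500.2, 1935 and 2345 in the combination libraries. Fgg stood at 3286, 4061, 1895, 2197 and 2149.9 CPM in the vehicle libraries 1 to 5, 2914, 1869, 4130.2, 1499.9 and 1302 in the rosuvastatin libraries, 4690.1, 2482, 1903, 2754 and 1878 in the GGOH libraries and 2185, 1329, 1286, 1897 and 2305 in the combination libraries. Rosuvastatin 3, vehicle 1 and GGOH 1 were high for all 3 chains, and rosuvastatin 4 and 5 and combination 2 and 3 held the 4 lowest values of each chain.

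The 3 chains varied together across the 20 libraries. Pearson r was 0.985 for Fga and Fgb, 0.879 for Fga and Fgg and 0.901 for Fgb and Fgg, and Spearman rho was 0.983, 0.877 and 0.905 (adjusted permutation p = 2.2e-05 for each r, where 1e-05 is the smallest unadjusted p that the permutations can give). Without rosuvastatin 3 and vehicle 1, the libraries farthest from the median, r was 0.968, 0.902 and 0.927. After each group's mean was taken out, r was 0.986, 0.895 and 0.907, so the relation was as close within groups. High correlations were common among members: over all 780 pairs of the 40 the median r was 0.41, F2 with F10 reached 0.953, and the pairs of fibrinogen chains ranked 1, 12 and 19 and C8a with C8b 33. The points share library and depth, and p-values were adjusted over the 9 pairs of genes examined.

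The log2 fold changes of Fga, Fgb and Fgg with the combination were -0.38, -0.40 and -0.59 against vehicle and -0.37, -0.41 and -0.38 against rosuvastatin, none past the test (edgeR adjusted p from 0.817 to 1.00). All 3 differences from rosuvastatin rested on rosuvastatin 3, and were 0.060, 0.017 and -0.080 without that library. Those from vehicle were 0.10, 0.076 and -0.26 without the 3 libraries set aside above, so the direction was not kept for Fga and Fgb. Without vehicle 1 alone they were -0.098 for Fga and -0.15 for Fgb, and Fgg was -0.39 without vehicle 2. In the combination against rosuvastatin, 32 of 40 members were lower, with a median of -0.10 against 0.01 for all genes. There 0 members had an unadjusted p under 0.05, beside 1.69% of all genes and 0.665% in the lower direction. No member's combination and rosuvastatin libraries separated, beside 0.266% of all genes. Without the 3 libraries set aside above, 22 members were lower than with rosuvastatin. F13b, the carrier chain of the fibrin cross-linking enzyme, stood at 178, 280.2, 190.2, 221 and 261 CPM in the vehicle libraries 1 to 5, 225, 189, 156, 166 and 127 in the rosuvastatin libraries, 234, 159.5, 224, 265 and 166 in the GGOH libraries and 200.1, 130.4, 142, 199 and 169 in the combination libraries. Its log2 fold change was -0.39 ± 0.19 (SE) with rosuvastatin (edgeR adjusted p = 0.973) and -0.43 ± 0.19 (SE) with the combination (edgeR adjusted p = 0.817), with overlapping groups. With total-count scaling these were -0.21 and -0.28.

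**Figure D3:**
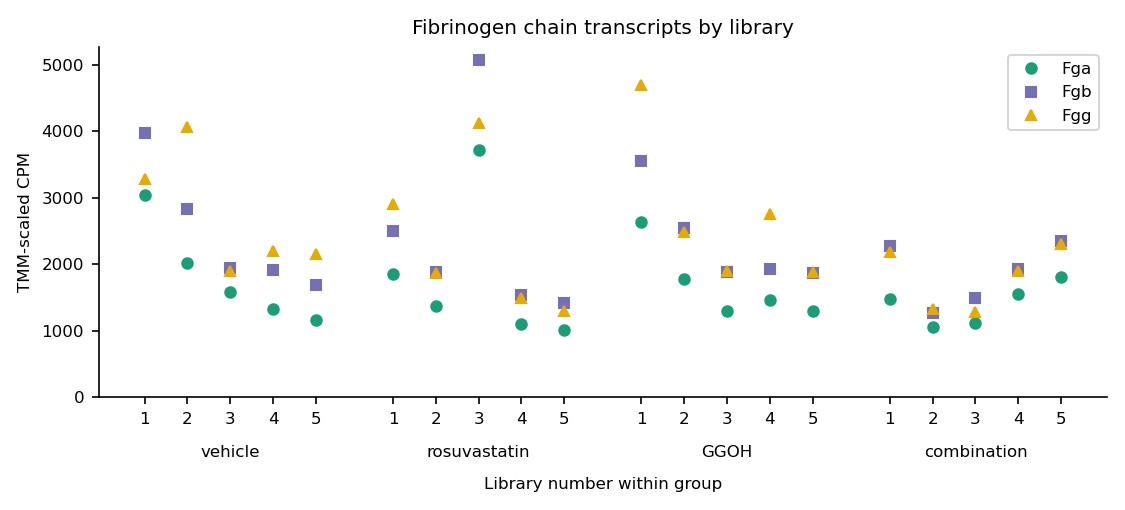
TMM-scaled CPM of Fga (circles), Fgb (squares) and Fgg (triangles) in each of the 20 libraries, by group. The 3 chains move together from library to library, with rosuvastatin 3 the highest for Fga (3719.5) and Fgb (5066) and the groups overlapping throughout.

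Among the anticoagulants, Serpinc1 stood at 1405, 1444, 1305, 1376 and 1593 CPM in the vehicle libraries 1 to 5, 1594, 1338, 1368, 1121 and 969.6 in the rosuvastatin libraries, 1416, 1077, 1408, 1417 and 1184 in the GGOH libraries and 1481, 894, 924, 1359 and 1321 in the combination libraries, and combination 2 and 3 and rosuvastatin 5 were its lowest libraries. Pros1 stood at 43.4, 44.4, 36.8, 38.9 and 34.7 CPM in the vehicle libraries 1 to 5, 29.1, 36.5, 44.5, 35.9 and 36.7 in the rosuvastatin libraries, 39.1, 37.8, 38.6, 34.97 and 32.8 in the GGOH libraries and 27.4, 34.1, 36.9, 36.7 and 32.8 in the combination libraries, within one of the narrowest ranges of any member. Serpind1 (heparin cofactor II), named after its values were seen, stood at 417, 427, 421, 466 and 433 CPM in the vehicle libraries 1 to 5, 399, 347, 332, 349 and 268 in the rosuvastatin libraries, 448, 317, 399.8, 399 and 306 in the GGOH libraries and 382, 246, 222, 347 and 416 in the combination libraries. It was the 1 member whose 5 rosuvastatin libraries, up to 399 CPM, all lay below the 5 vehicle libraries, from 417 CPM, as 0.516% of all genes separated in either direction. The combination libraries, up to 416 CPM, also lay below vehicle, as 0.758% of all genes separated in that comparison. In TPM vehicle ran from 139.8 to 296, rosuvastatin from 147 to 210.5 and the combination from 110.4 to 236, so both overlapped vehicle. The fold changes were -0.35 ± 0.18 (SE) and -0.42 ± 0.18 (SE) (edgeR adjusted p = 0.973 and 0.817). The first was -0.16 with log2(TPM + 1), and the second -0.18 without the 3 libraries set aside above. On the TMM scale all 4 anticoagulants were lower in each comparison with vehicle, with medians of -0.14, -0.15 and -0.25. The mean of log2 TPM was instead higher than in vehicle for Serpinc1, Proc and Pros1 with rosuvastatin, and for Proc with the combination.

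Of the fibrinolysis members, plasminogen (Plg), the precursor of plasmin, stood at 1609, 912, 1066, 757 and 709 CPM in the vehicle libraries 1 to 5, 858, 853, 1198, 726 and 544 in the rosuvastatin libraries, 838, 645, 762, 709 and 683 in the GGOH libraries and 856, 651, 809, 757 and 834 in the combination libraries. The GGOH libraries overlapped the lower end of the vehicle range, and the fold change was -0.47 ± 0.22 (SE) (edgeR adjusted p = 1.00), and -0.22 without vehicle 1. Serpinf2 (the plasmin inhibitor) and Cpb2 (which slows clot lysis) stood at -0.10, -0.33 and -0.37 and at -0.27, -0.14 and -0.40 on the log2 scale for rosuvastatin, GGOH and the combination, and none passed. Without vehicle 1 those of Serpinf2 were 0.13, -0.11 and -0.15, and without vehicle 2 those of Cpb2 were -0.11, -0.010 and -0.25.

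**Figure D4:**
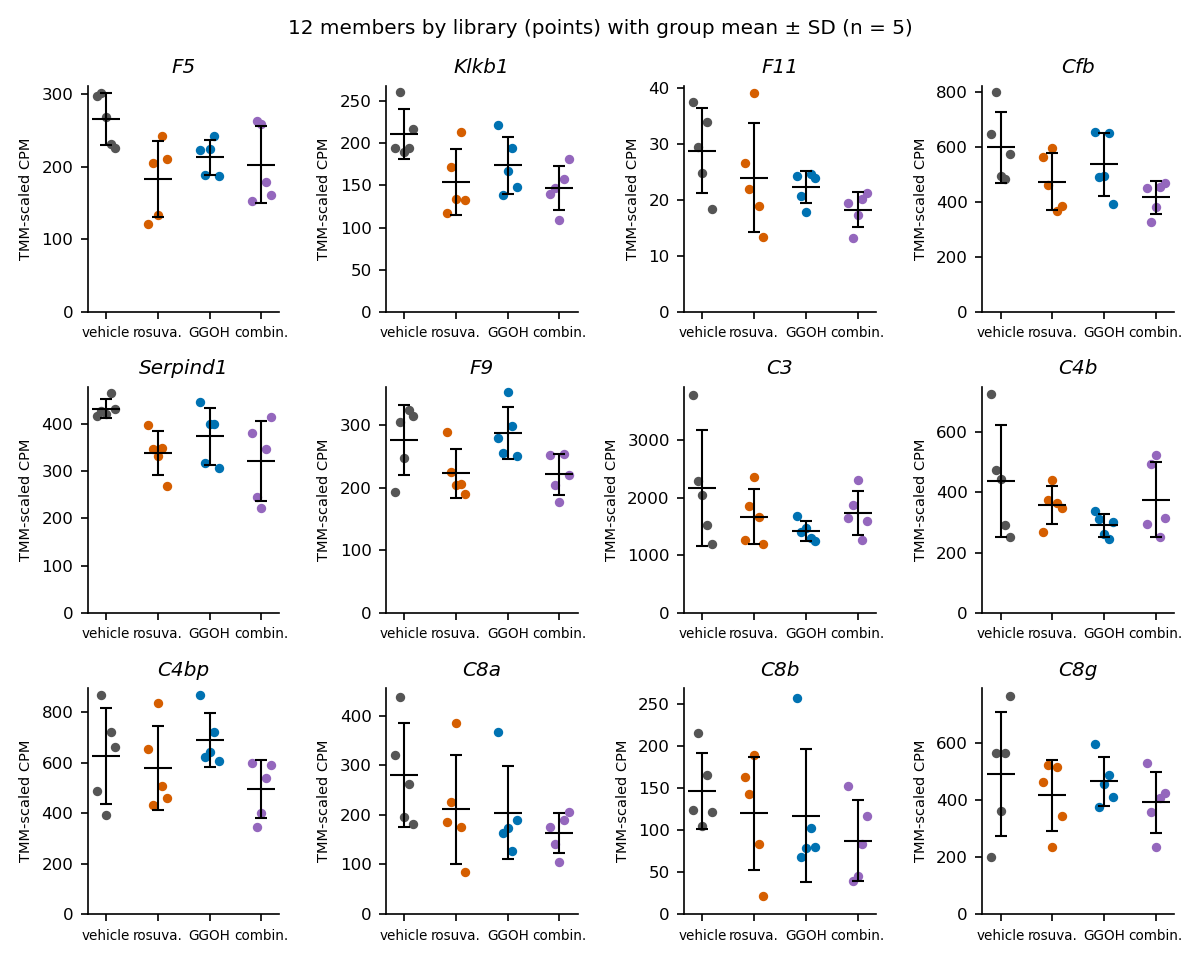
TMM-scaled CPM of 12 members in each library (points), with the group mean (bar) and SD (whiskers, n = 5), each axis starting at 0. Cfb, Klkb1 and Serpind1 show combination libraries that all lie below the vehicle libraries, as 0.758% of all genes did in either direction, though these groups overlap in TPM. C8b runs from 67.5 to 257 CPM within the GGOH group alone.

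The interaction of the compounds asks whether rosuvastatin's effect differed with GGOH present. For C4b it was 0.65 ± 0.36 (SE) on the log2 scale, for C3 0.67 ± 0.37 (SE) and for F5 0.47 ± 0.28 (SE) (edgeR adjusted p = 0.999 for each). No member reached an unadjusted p under 0.05, beside 2.89% of all genes and 0.79% in the lower direction, and the median of the members was 0.07 against 0.02. The C4b value was -0.061 with log2(TPM + 1) and -0.014 without the 3 libraries set aside above, so its direction was not kept. Without those 3 libraries the C3 value was 0.15 and the F5 value 0.10, and C3 was 0.34 without vehicle 1 alone. For GGOH averaged over rosuvastatin, 39 of 40 members were lower, with a median of -0.16 against 0.00 for all genes, 1 had an unadjusted p under 0.05 beside 1.7% of all genes and 0.805% in the lower direction, and 30 of 40 were lower without those libraries.

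Transcript length went with the members' deviations in several libraries. Length here is that of a gene's longest annotated coding transcript, or of its longest transcript where none is coding. This need not be the transcript expressed in liver. Across the 40 members, as a description, the correlation of a library's log2 deviation from the mean with log2 transcript length was 0.57 in vehicle 1, 0.53 in combination 2 and 0.54 in combination 3, and -0.75 in rosuvastatin 1, -0.64 in combination 1 and -0.54 in vehicle 5. Across all 12590 tested genes with a length, it had the same sign in each of these: 0.43, 0.37 and 0.44, and -0.36, -0.17 and -0.37. The 12 members over 3000 bases and the 8 members under 1800 bases differed in median log2 deviation by 0.69 in vehicle 1 and by -0.65 in rosuvastatin 1 (long minus short). C3, C4b, Hc, Klkb1 and F5 are among the long members, and Fgg, Cfd, C8g, Mbl2 and Mbl1 among the short. With an offset for length and GC content fitted in each library, a check added after the data were seen, 35, 39 and 38 of 40 members were lower with rosuvastatin, GGOH and the combination.

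**Figure D5:**
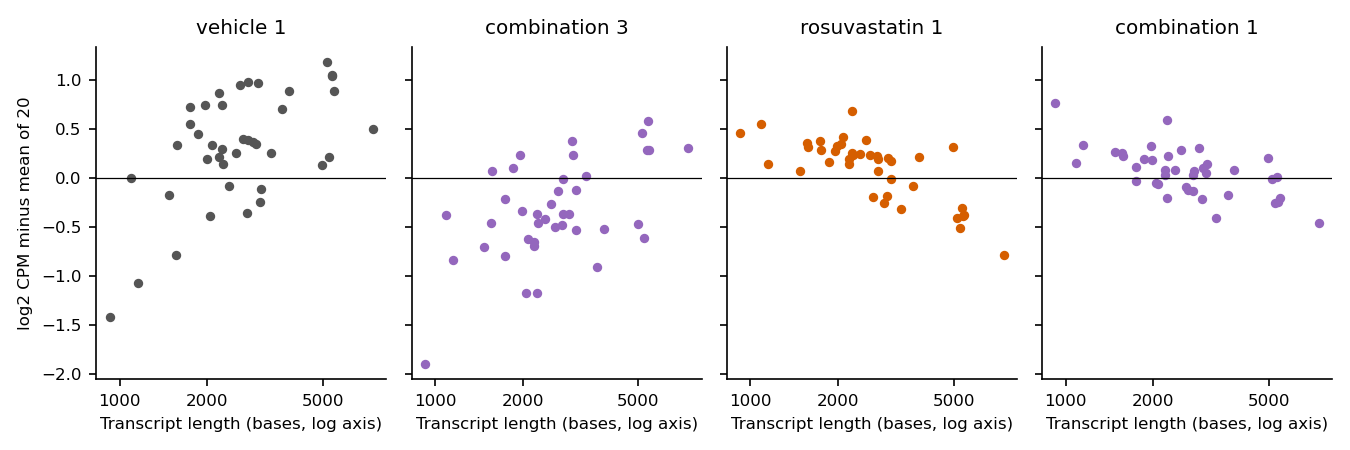
Deviation of each of the 40 members from its mean over the 20 libraries (log2 CPM) against transcript length in bases (log axis) in 4 libraries. Longer members stand higher in vehicle 1 and combination 3 and lower in rosuvastatin 1 and combination 1.

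The other genes of the pathways, 53 listed with receptors, inhibitors and the vitamin K cycle, gave 45 tested genes and none past the test. Against vehicle, 25, 19 and 32 of 45 were lower with rosuvastatin, GGOH and the combination, with medians of -0.04, 0.03 and -0.14. Habp2, a protease that can activate factor VII, had log2 fold changes of -0.25 ± 0.12 (SE) with rosuvastatin and -0.28 ± 0.12 (SE) with the combination (edgeR adjusted p = 0.973 and 0.817).

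The acute phase response was followed with 17 other genes. Saa1 (serum amyloid A) stood at 508, 9216, 93.1, 944 and 1456 CPM in the vehicle libraries 1 to 5, 191, 158, 1431, 65.6 and 111 in the rosuvastatin libraries, 367, 189.7, 271, 119 and 50.9 in the GGOH libraries and 135, 88.5, 52.5, 196 and 118 in the combination libraries, and vehicle 2 was far above every other library. Of the 17 genes, 13, 15 and 16 were lower against vehicle with rosuvastatin, GGOH and the combination, with medians of -0.32, -0.35 and -0.95, and none passed. Over the 20 libraries Saa1 varied with C9 (Pearson r = 0.608, adjusted permutation p = 0.0062, Spearman rho = 0.693, adjusted permutation p = 0.00122) and with Fgb (r = 0.538, adjusted permutation p = 0.0195, rho = 0.591, adjusted permutation p = 0.00864). Without vehicle 2 and vehicle 5, the libraries farthest from the median of Saa1, r was 0.526 and 0.731. With log2(TPM + 1) the relation to Fgb was 0.384 (adjusted permutation p = 0.135). For C3 r was 0.261 and for C4b 0.099, with adjusted permutation p = 0.295 and 0.679. Saa1 reads may be shared with Saa2. Of 13 hepatocyte regulators none passed.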

How the data were processed

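Poly(A) RNA of 20 mouse liver samples was sequenced as paired reads, per the labels' protocols. The submitters' processing notes name bcl2fastq 2.19, kallisto 0.44.0 and DESeq2 with the build GRCm38. The authors deposited kallisto estimated counts per gene and TPM values per gene, the latter scaled for transcript length and depth. How transcripts were summed to genes is not given in the sources used here. One entry of 34934 has no gene name, took 0.00801 to 0.0157% of counts and was left out.

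The test applied to the rounded estimated counts was the quasi-likelihood F test of edgeR 4.0.16 (R 4.3.3), after TMM scaling and the default filter by group, in 1 group-means model for the 20 libraries. Benjamini-Hochberg adjustment covered 12789 genes, and 0.05 was the threshold. CPM values are TMM-scaled, log2 CPM uses a prior count of 2, and SEs come from the F statistic. The median total was 15697884.5 estimated counts, and kallisto's division of reads among copies limits paralogs. Correlations used 100000 permutations, 2-sided (SciPy 1.17.1). The test was also run on simulated counts. These held no transcript length trend between libraries, so that run cannot show how the test fares with such a trend. Alternatives were DESeq2 1.42.0, limma 3.58.1 on log2(TPM + 1) and log2(TPM + 0.1), other scalings and filters, a replicate block, and leaving libraries out. The members and lists were chosen with earlier results of these data known. Values by library are given for the fibrinogen chains, the 5 highest and 3 lowest members by TPM, the 3 smallest p of each comparison and members with a value far from its group; others so shown were chosen after their values were seen. Positions and lengths are from GENCODE M21, promoter windows from RefSeq (GRCm38.p6). A few other results, of genes that are no members and of a sequence motif, are not reported here.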

Additional observations from a re-analysis of the deposited data

Results flagged for a closer look

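A value far from the others of its group was looked for in 168 groups of 5 libraries with Dixon's criterion. It marked 4, where chance gives about 8.4. C2 was 28.9 CPM in vehicle 5 and 38.9 to 43.8 CPM in the other vehicle libraries. Mbl2 was 271 CPM in rosuvastatin 1 and 126 to 156 CPM in the other rosuvastatin libraries. Cfd was 5.70 CPM in rosuvastatin 5 and 22.4 to 29.8 CPM in the others of that group. The members' share of counts was 3.52% in rosuvastatin 3 and 1.67 to 2.15% in the other rosuvastatin libraries.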

How the results depend on the processing

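No member passed the adjusted test in any of the 8 comparisons under any of the 31 or 32 alternatives run for each, and the smallest adjusted p was 0.085. Of 44 results for single members, 37 kept their direction throughout, and 13 of 1399 values reversed. The interaction value of C4b was -0.061 with log2(TPM + 1), -0.061 with log2(TPM + 0.1) and -0.014 without vehicle 1, combination 2 and combination 3. Without those 3 libraries the combination against vehicle gave 0.10 for Fga, 0.076 for Fgb and 0.11 for Serpinf2, and rosuvastatin against vehicle gave 0.11 for Serpinf2. The latter was 0.086 with log2(TPM + 1), 0.087 with log2(TPM + 0.1), and from -0.33 to 0.13 with 1 library left out. The difference between the combination and rosuvastatin ran from -0.53 to 0.060 for Fga and from -0.56 to 0.017 for Fgb with 1 library left out, both upper ends without rosuvastatin 3. With log2(TPM + 1) the correlations of Mbl1 with Mbl2 (0.36) and of Saa1 with Fgb (0.38) no longer passed. The cause was not tested. With the replicate block 0 members were called. Libraries of the same number did not deviate together on average (mean r 0.0097, over 0.1 in 13 of 30 pairs, and 5 of 20 libraries closest to their own number). The labels do not say whether the numbers pair the samples, and these values cannot settle it. The limits are 5 libraries a group, within-group SDs near 0.34 on the log2 scale, and a transcript length trend that differs between libraries.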
